A study of Mus musculus with 6 samples.

Results

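The fibroblast growth factor (FGF) system of skeletal muscle fibroadipogenic progenitors (FAPs) was described by 10 genes, 6 for ligands (Fgf1, Fgf2, Fgf7, Fgf10, Fgf18 and Fgf21) and 4 for receptors (Fgfr1, Fgfr2, Fgfr3 and Fgfrl1). They were chosen by gene symbol, and all 10 were among the 16894 genes of the expression table. Bulk RNA-seq had been performed on 3 libraries of control FAPs (non-senescent) and 3 of senescent FAPs, all from young C57BL/6 mice. FAPs had been isolated from hindlimb muscles of 3- to 6-month-old animals by magnetic sorting for CD45-/CD31-/α7-integrin-/SCA-1+ cells. The senescent cells had received etoposide, a topoisomerase poison that breaks DNA, at 20 μM for 48 h and then stayed in normal medium for 5 days. The growth medium given for FAPs holds serum and recombinant human bFGF, which is FGF2 protein. How long control FAPs were kept and whether animals were pooled is not given in the sources used here.

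FGFs are signaling proteins that bind receptor tyrosine kinases on the cell surface together with heparan sulfate, a sugar chain of the matrix and the cell coat. The bound receptor passes the signal through adaptors to RAS and the ERK kinases, and induces genes that damp the same pathway. FGF1 and FGF2 leave the cell without a classical signal peptide, FGF7 and FGF10 form a subfamily that acts mainly on the IIIb splice form of FGFR2, FGF18 is known from bone and cartilage, and FGF21 is a hormone that needs the co-receptor β-klotho. FGF2 is a mitogen for many mesenchymal cells in culture. From single-cell RNA-seq of mouse muscle, the paper reported FGF signals sent and received by non-senescent FAPs that were absent in senescent ones. That was a prediction from ligand and receptor expression in other cells, from young and old mice, and is another measure than the values here.

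Reads on genes ranged from 41412179 to 59912520 per library, and expression is given as CPM, the reads of a gene scaled to the effective size of its library. Libraries are numbered by replicate, 1 to 3 in each group. The sort marker gene Ly6a, which encodes SCA-1, was present in each library at 220 to 678 CPM, and the FAP marker Pdgfra at 126 to 254 CPM. Of 8 FAP markers 6 were called, in opposite directions. Col1a1 had a log2 fold change of −2.29, while Cd34, Dcn, Dpt, Lum and Ly6a were higher by 0.81 to 1.98 on the log2 scale. The cell cycle inhibitor gene Cdkn1a went from 290 ± 40.5 to 1038 ± 21.4 CPM (SD, n = 3 each), and Cdkn2a, whose products include p16, from 85.5 ± 38.2 to 90.0 ± 23.2 CPM (SD, n = 3 each) without passing the test (limma BH-adjusted p = 0.765). Values per gene do not separate the transcripts of Cdkn2a, and the paper reported higher p16 by qPCR in etoposide-treated FAPs. Mki67, a proliferation marker, went from 158 ± 78.6 to 12.7 ± 5.49 CPM (SD, n = 3 each). Its log2 fold change was −3.55 (limma BH-adjusted p = 4.45e-04). Lists of markers of other cells were summed in each library. The endothelial markers (5 of 6 analysed) summed to 19.2 to 39.5 CPM in control and 23.8 to 31.2 CPM in senescent FAPs, and leukocyte markers (4 of 6) to 8.92 to 12.1 CPM and 21.2 to 25.7 CPM. Of the endothelial markers, Pecam1 and Vwf were called higher, Kdr was called lower and Tek did not pass the test. Of the leukocyte markers, Cd53 and Cd68 were called higher and Csf1r did not pass the test. Satellite cell and myoblast markers (3 of 7) summed to 15.2 to 19.5 CPM in control and 24.3 to 31.3 CPM in senescent FAPs. Of these, Itga7, the gene of the α7-integrin used in the sort, was called higher, and Des and Chrna1 did not pass the test. Itga7 had 11.1 ± 1.69 CPM in control and 20.2 ± 4.05 CPM in senescent FAPs (SD, n = 3 each, limma BH-adjusted p = 0.00771). Adipocyte markers (2 of 6) summed to 8.84 to 10.7 CPM in control and 9.65 to 10.7 CPM in senescent FAPs (Fabp4 called higher and Pparg lower). The 1 analysed of 5 epithelial markers, Cdh1, reached 0.0718 CPM in control, where control replicate 2 was at 0, and 1.04 CPM in senescent FAPs. Tenocyte and chondrocyte markers (5 of 6) summed to 114 to 192 CPM in control and 40.6 to 44.4 CPM in senescent FAPs, with Col2a1 and Tnmd called lower and Mkx called higher. The sum for pericyte and smooth muscle markers (6 of 6, mostly Acta2) was 4499 to 6443 CPM in control and 1654 to 2623 CPM in senescent FAPs. Acta2 and Cspg4 were called lower, Rgs5 was called higher, and Myh11 and Des did not pass the test. Pax7, Ptprc, Adgre1 and Acan, which define some of these cells, were not analysed here. The part of these markers in the results below was not tested. In bulk RNA, fewer cells that express a gene and less RNA per cell cannot be told apart.

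Promoter sequence is shown for the 4 genes that differed between the groups and whose window before the start site holds no annotated exon of the gene: Fgf7 and Fgf10, the related ligands that rose, Fgfr2, the receptor they share, which fell, and Fgf21, which fell. RefSeq promoters on GRCm38.p6 matched 8 of the 10 genes, all but Fgf1 and Fgfr1. Each sequence is the 250 bases before the start site, 5′ to 3′ on the strand of the gene, at chr13:118714449-118714698 (plus strand) for Fgf10, chr2:126034408-126034657 (plus) for Fgf7, chr7:130266809-130267058 (minus) for Fgfr2 and chr7:45615491-45615740 (minus) for Fgf21. Capitals mark matches to TATAAA, the TATA box, or to GGGCGG, the GC box, on either strand.
Fgf10: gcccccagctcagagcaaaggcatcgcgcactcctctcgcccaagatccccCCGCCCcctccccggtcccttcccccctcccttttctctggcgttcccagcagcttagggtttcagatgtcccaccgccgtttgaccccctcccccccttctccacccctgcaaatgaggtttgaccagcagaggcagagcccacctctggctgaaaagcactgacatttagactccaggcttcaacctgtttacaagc
Fgf7: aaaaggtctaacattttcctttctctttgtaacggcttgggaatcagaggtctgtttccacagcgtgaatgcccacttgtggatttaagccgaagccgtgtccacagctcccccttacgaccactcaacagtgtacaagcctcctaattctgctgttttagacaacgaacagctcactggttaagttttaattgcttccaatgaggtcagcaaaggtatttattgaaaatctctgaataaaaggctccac
Fgfr2: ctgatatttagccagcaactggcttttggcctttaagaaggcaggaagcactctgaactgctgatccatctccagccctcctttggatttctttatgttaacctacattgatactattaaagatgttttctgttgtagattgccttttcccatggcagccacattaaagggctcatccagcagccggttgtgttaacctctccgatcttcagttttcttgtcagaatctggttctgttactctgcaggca
Fgf21: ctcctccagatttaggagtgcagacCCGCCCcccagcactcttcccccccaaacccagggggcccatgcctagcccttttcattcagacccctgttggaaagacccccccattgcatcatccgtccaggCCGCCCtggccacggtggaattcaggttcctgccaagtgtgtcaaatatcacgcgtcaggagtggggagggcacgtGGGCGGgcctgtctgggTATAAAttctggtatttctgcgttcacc
The Fgf21 window holds a TATA box that begins 28 bases before the start and GC boxes that begin 225, 121 and 45 bases before it. The Fgf10 window holds 1 GC box, 199 bases before the start, and the windows of Fgf7 and Fgfr2 hold neither motif. None of the 4 windows holds TGANTCA, the AP-1 site, or the core of the interferon-stimulated response element, GAAA and GAAA with any 2 bases between, on either strand. These motifs do not overlap each other in the printed sequences. Of the 32851 mouse promoter windows of this length, 12.4% hold a TATA box, 32.7% a GC box, 6.75% an AP-1 site and 2.98% the response element core on either strand. The windows of Fgf10 and Fgf21 are richer in G and C, at 61.2% and 59.6%, than those of Fgf7 and Fgfr2, at 43.6% and 44.0%.

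In senescent FAPs 4 of the 6 ligand genes rose and 1 fell, and 1 of the 4 receptor genes fell. Compared to control FAPs, Fgf10, Fgf1, Fgf2 and Fgf7 were higher and Fgf21 and Fgfr2 were lower, while Fgf18, Fgfr1, Fgfr3 and Fgfrl1 did not pass the test. The test was limma on log2(CPM + 0.5), and a gene was called where its p, adjusted by the Benjamini-Hochberg (BH) method over all 14776 genes tested, was under 0.05. Genes were tested if 3 or more libraries had 0.5 CPM or more. All 10 members passed that filter. By this rule 46.1% of all genes tested were called, 21.8% higher and 24.3% lower, so that 6 calls among 10 members (60.0%) are not read as a property of the family. By size, 3 members (Fgf10, Fgf1 and Fgf2) had an unadjusted limma p under 0.01 and more than 1 log2 unit of increase, which 6.93% of all genes had, and 0 had such a decrease, which 3.9% had. The median log2 fold change was 0.28 over the 10 members and −0.03 over all genes tested. In 7 members the values of the groups did not overlap, which held for 57.4% of all genes tested. Without senescent replicate 2 or senescent replicate 3, 1 member was called lower in place of 2, where the shares over all genes were 16.4% and 18%. Without control replicate 2 or senescent replicate 1 the count stayed at 2, but with Fgfr3 in place of Fgf21. Division by library totals alone took the all-gene median from −0.03 to 0.17, and each member with it. With the replicate number as a block, Fgfrl1 was also called higher and Fgfr3 lower. That fit gave 5 members higher and 3 lower, where the shares over all genes were 24.2% and 26.7%.

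**Figure D1:**
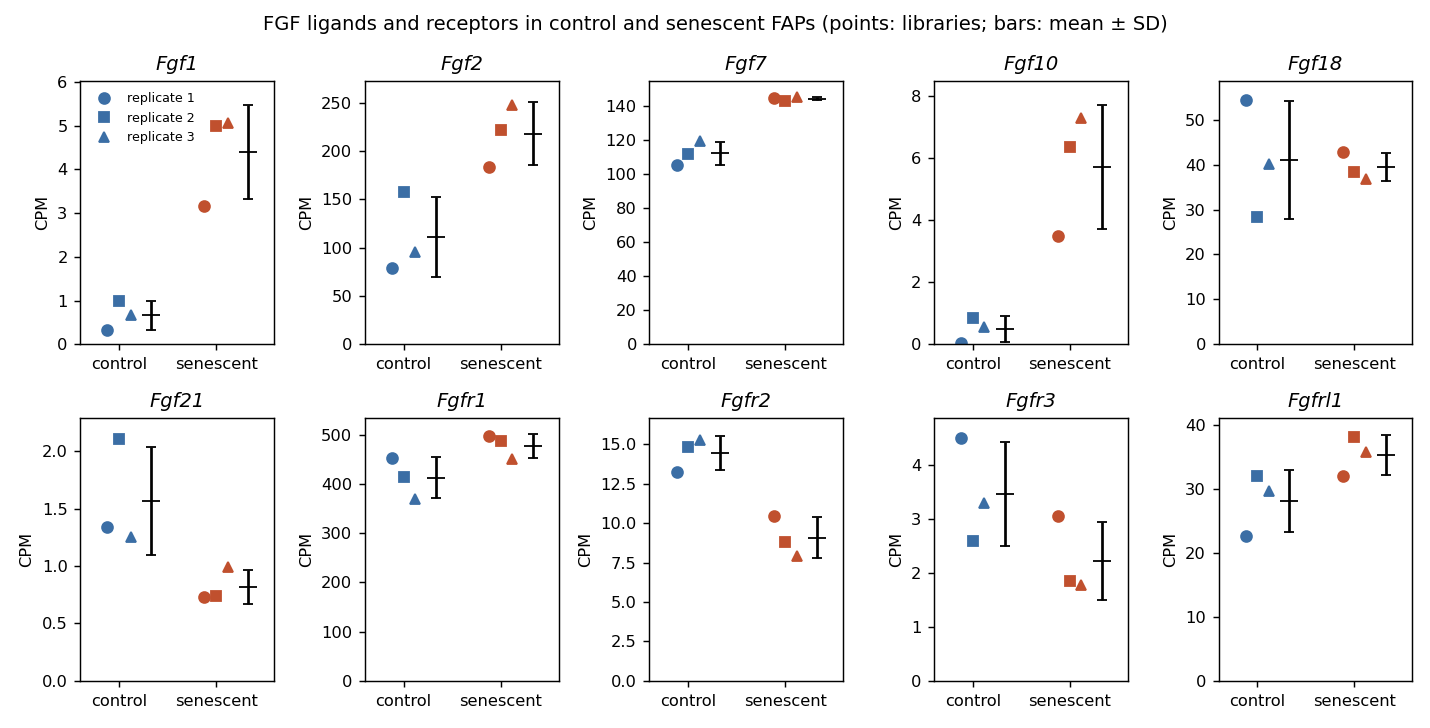
Expression of each FGF ligand and receptor gene in CPM (linear axes from 0), with 1 point for each library (circle, square and triangle for replicates 1, 2 and 3) and the mean ± SD of 3 libraries beside them. Fgf1 and Fgf10 are near 0 in control FAPs (at most 0.989 and 0.856 CPM) and at 3.16 CPM or more in each senescent library, while the groups overlap for Fgf18, Fgfr1 and Fgfr3.

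Fgf10 showed the largest rise of the family. FGF10 is a paracrine ligand that mesenchymal cells send to epithelia, and it takes part in the formation of adipose tissue. Its gene lies on the plus strand at chr13:118714699-118792573 (RefSeq, GRCm38, as for the other members). It had 0.0446, 0.856 and 0.556 CPM in control libraries 1 to 3 and 3.49, 6.36 and 7.31 CPM in senescent libraries 1 to 3. All senescent libraries were thus above all control libraries, and control replicate 1 was the lowest with only 2 reads, against 45 and 31 reads in the other control libraries and 176 to 380 reads in senescent FAPs. The groups differed by 2.70 on the log2 scale (SE 0.38, limma BH-adjusted p = 0.00135), and 99.6% of all genes tested had a lower value. The means, 0.486 ± 0.410 CPM (SD, n = 3) and 5.72 ± 1.99 CPM (SD, n = 3), differed 11.8-fold, or 19.0-fold without control replicate 2. Between libraries of the same replicate number the fold was 7.43 and 13.1 for replicates 2 and 3, and none is given for replicate 1 with its 2 reads. Because the added 0.5 CPM is as large as the control level, the change on the log2 scale depends on it, with 3.63 for an addition of 0.1 CPM, 2.17 for 1 CPM and 3.55 with edgeR's quasi-likelihood test on recovered reads. Each of these stayed past the threshold. An antisense gene, Gm16263, spans the first part of Fgf10, and the sources used here do not give whether reads were counted by strand.

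Fgf1 rose next most. FGF1, or acidic FGF, binds every FGF receptor. The gene lies on the minus strand at chr18:38838672-38929470. Arhgap26 and the noncoding RNA gene AC110730.1, both on the opposite strand, overlap exons of Fgf1. As for Fgf10, it is not given whether reads were counted by strand. Control libraries 1 to 3 had 0.335, 0.989 and 0.664 CPM and senescent libraries 1 to 3 had 3.16, 4.99 and 5.06 CPM. The groups were apart by more than 3 times at their closest libraries, 15 to 52 reads in control against 159 to 298 reads in senescent FAPs. Fgf1 differed by 2.09 on the log2 scale (SE 0.26, limma BH-adjusted p = 8.74e-04), a 6.64-fold difference of the means. With edgeR's quasi-likelihood test on recovered reads it was 2.74.

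Fgf2, which encodes basic FGF, a mitogen, rose in senescent FAPs, with a wide spread among the control libraries. It had 79.3, 158 and 96.0 CPM in control libraries 1 to 3 and 184, 222 and 248 CPM in senescent libraries 1 to 3. The groups did not overlap, but control replicate 2 lay closer to senescent replicate 1 than to the other control libraries. The log2 fold change was 1.02 (SE 0.24, limma BH-adjusted p = 0.0107), or 1.97-fold between the means of 111 ± 41.2 CPM (SD, n = 3) and 218 ± 32.5 CPM (SD, n = 3). Between libraries of the same replicate number the fold was 2.32, 1.41 and 2.59. Without senescent replicate 3 the log2 fold change was 0.92 and no longer past the threshold (limma BH-adjusted p = 0.0521). Control replicate 2 also had the most Mki67, a marker of proliferation, at 247 CPM against 125 and 101 CPM in control replicates 1 and 3. It was the highest control library for Fgf1, Fgf10, Fgf21 and Fgfrl1 and the lowest for Fgf18 and Fgfr3. Of the FAP markers it was the lowest control library for Pdgfra (126 CPM), Ly6a (220 CPM), Col1a1 and Cd34. For Dcn, Dpt, Pdgfrb and Lum it lay between control replicates 1 and 3. The part of this in these values was not tested.

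Fgf2 lies on the plus strand at chr3:37348477-37410106, with a gene of the opposite strand over each end. Fgf2os, an antisense RNA at chr3:37335332-37349740, had 0.848, 2.38 and 0.628 CPM in control and 3.44, 4.57 and 5.13 CPM in senescent libraries 1 to 3. It rose by a log2 fold change of 1.56 (SE 0.34, limma BH-adjusted p = 0.00861), with control replicate 2 again the highest control library. Nudt6, at chr3:37404910-37420211, went from 1.55 ± 0.317 to 1.12 ± 0.164 CPM (SD, n = 3 each) and did not pass the test (limma BH-adjusted p = 0.155). Without knowledge of the strand setting, reads from the shared stretches cannot be told apart. In reads scaled per library both neighbours had at most 5.13 CPM where Fgf2 had at least 79.3 CPM. These values do not show how many reads of the shared stretches were given to each gene.

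Fgf7 rose by the smallest amount among the called ligands and with the tightest replicates. FGF7, or keratinocyte growth factor, is made by mesenchymal cells and acts on epithelial cells. Its gene lies on the plus strand at chr2:126034658-126091185. It had 106, 112 and 119 CPM in control and 145, 143 and 145 CPM in senescent libraries 1 to 3, so that the lowest senescent library exceeded the highest control library. On the log2 scale the rise was 0.36 (SE 0.07, limma BH-adjusted p = 0.00498), a 1.29-fold difference.

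Fgf18, on the minus strand at chr11:33116970-33147400, did not differ between the groups beyond the spread of the control libraries. It had 54.5, 28.2 and 40.2 CPM in control libraries 1 to 3 and 42.9, 38.4 and 36.9 CPM in senescent libraries 1 to 3, with every senescent library inside the control range. The log2 fold change was −0.01 (95% interval −0.50 to 0.48, limma BH-adjusted p = 0.975). The differences between libraries of the same replicate number were of both signs, −0.34, 0.44 and −0.12 on the log2 scale. A value this near 0 has no stable sign. It was above 0 with scalings that move many genes together, namely median-of-ratios factors (0.00862), division by library totals alone (0.20) and quantile normalization (0.0536), and without control replicate 1, control replicate 3, senescent replicate 2 or senescent replicate 3 (0.00205 to 0.22). No setting called it.

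Fgf21 was the only ligand called lower, at a low level. FGF21 is a stress-responsive metabolic hormone. The gene lies on the minus strand at chr7:45613890-45615490. It had 1.34, 2.11 and 1.26 CPM in control libraries 1 to 3, from 60 to 111 reads, and 0.735, 0.736 and 0.990 CPM in senescent libraries 1 to 3, from 37 to 44 reads. The groups did not overlap. The log2 fold change was −0.63 (SE 0.20, limma BH-adjusted p = 0.0342), with senescent FAPs at 0.523 of the control mean. This call was lost when control replicate 2, the highest library, was left out (−0.45, limma BH-adjusted p = 0.0778), without senescent replicates 1, 2 or 3 (limma BH-adjusted p = 0.0932, 0.116 and 0.0584) and with division by library totals alone (−0.48, limma BH-adjusted p = 0.0807). Klb, the gene for its co-receptor, was not analysed here.

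Among the receptors, Fgfr1 had the highest level per length in each library, and Fgfr2 was the one that passed the test. FGFR1 is the main FGF receptor kinase of mesenchymal cells. Fgfr1, on the plus strand at chr8:25518759-25575718, had 453, 414 and 370 CPM in control and 496, 487 and 450 CPM in senescent libraries 1 to 3, so that control replicate 1 overlapped the senescent range. The groups differed by 0.22 on the log2 scale (95% interval −0.01 to 0.44, limma BH-adjusted p = 0.105). It passed the threshold with division by library totals alone (0.43, limma BH-adjusted p = 0.00870), with quantile normalization (0.44, limma BH-adjusted p = 0.0108) and with array weights (0.34, limma BH-adjusted p = 0.00315).

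Fgfr2 encodes the receptor whose IIIb form binds FGF7 and FGF10. It lies on the minus strand at chr7:130162451-130266808. It had 13.2, 14.8 and 15.3 CPM in control and 10.5, 8.82 and 7.90 CPM in senescent libraries 1 to 3. Every senescent library was below every control library, with a log2 fold change of −0.65 (SE 0.13, limma BH-adjusted p = 0.00650) and a mean of 9.06 ± 1.30 CPM (SD, n = 3) against 14.4 ± 1.07 CPM (SD, n = 3). The call held in each of the 18 alternative settings tried for single genes, and its log2 fold change ranged from −0.75 to −0.44. Relative to Fgfr2, Fgfr1 was at 34.3, 28.0 and 24.3 times in control and 47.4, 55.3 and 57.0 times in senescent libraries 1 to 3, as a ratio of CPM not corrected for length (exact permutation test over libraries, two-sided p = 0.1, which is the lowest that 3 against 3 can give). Values per gene do not separate the IIIb and IIIc splice forms.

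Fgfr3, on the plus strand at chr5:33721724-33737068, encodes a receptor known from cartilage and bone. It had 4.49, 2.59 and 3.28 CPM in control and 3.06, 1.84 and 1.78 CPM in senescent libraries 1 to 3. The ranges overlapped, and the log2 fold change was −0.54 (95% interval −1.11 to 0.03, limma BH-adjusted p = 0.108). Each senescent library was nevertheless below the control library of the same number, and with the replicate number as a block the gene was called (limma BH-adjusted p = 0.0259). It was also called without control replicate 2 (−0.70, limma BH-adjusted p = 0.0436), without senescent replicate 1 (−0.75, limma BH-adjusted p = 0.0433) and with array weights (limma BH-adjusted p = 0.00578). Among markers of tenocytes and chondrocytes Col2a1 and Tnmd were lower, Mkx was higher, and Scx and Sox9 did not pass the test. Their part in the Fgfr3 values was not tested.

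Fgfrl1, on the plus strand at chr5:108694229-108706950, encodes an FGF-binding receptor that lacks the tyrosine kinase domain. It had 22.7, 32.0 and 29.7 CPM in control and 32.0, 38.2 and 35.7 CPM in senescent libraries 1 to 3. Control replicate 2 and senescent replicate 1 nearly met, and the groups did not overlap. The log2 fold change was 0.34 (95% interval 0.01 to 0.66, limma BH-adjusted p = 0.0833). It passed the threshold with the replicate block (limma BH-adjusted p = 0.0191), without control replicate 2 (0.43, limma BH-adjusted p = 0.0285), with division by library totals alone (0.54, limma BH-adjusted p = 0.0181) and with array weights (limma BH-adjusted p = 0.00968).

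**Figure D2:**
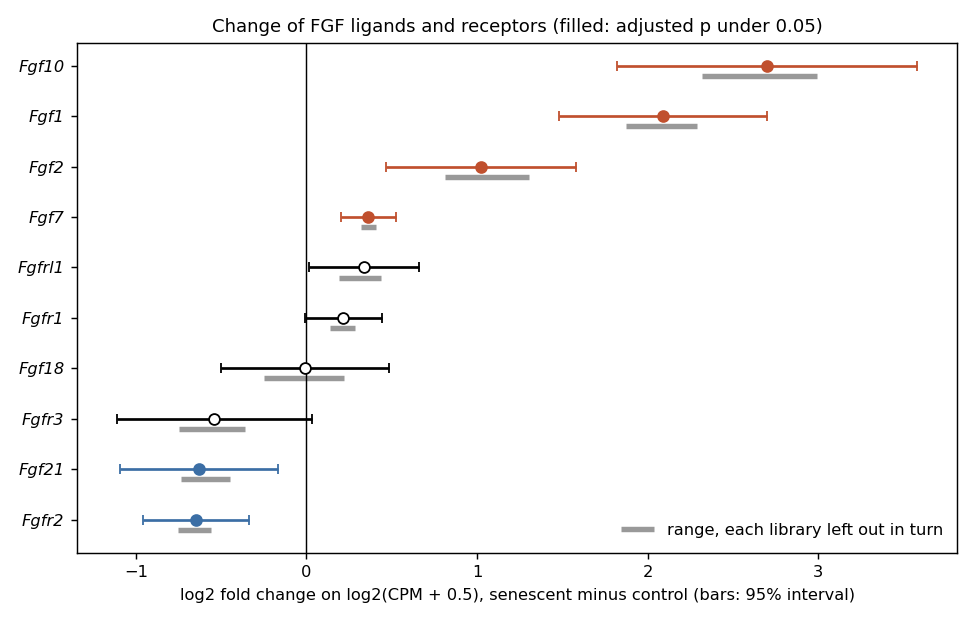
Log2 fold change of each member on log2(CPM + 0.5), senescent minus control FAPs, with its 95% interval from limma and, in gray, the range when each of the 6 libraries was left out in turn. Filled points passed an adjusted p under 0.05, from Fgf10 at 2.70 to Fgfr2 at −0.65, and Fgf18 lies at −0.01 with a gray bar on both sides.

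To compare genes with each other, CPM was divided by the length of the longest principal transcript in GENCODE M21, from 951 bases for Fgf21 to 5973 bases for Fgf2. In control FAPs Fgfr1 was highest with 82.1 ± 8.30 CPM per kb (SD, n = 3), followed by Fgf7 with 42.0, Fgf18 with 37.7, Fgf2 with 18.6, Fgfrl1 with 12.1, Fgfr2 with 4.34, Fgf21 with 1.65, Fgfr3 with 0.813, Fgf1 with 0.166 and Fgf10 with 0.118 CPM per kb. Library ranges of neighbours in this order overlapped for Fgf7 and Fgf18, Fgf18 and Fgf2, Fgf2 and Fgfrl1, and Fgf1 and Fgf10. In senescent FAPs Fgfr1 stayed first with 95.1 ± 4.87 CPM per kb (SD, n = 3). Fgf7 followed with 54.0, Fgf2 with 36.5, Fgf18 with 36.3, Fgfrl1 with 15.2, Fgfr2 with 2.73, Fgf10 with 1.39, Fgf1 with 1.11, Fgf21 with 0.863 and Fgfr3 with 0.524 CPM per kb. Here the ranges overlapped for Fgf2 and Fgf18, Fgf10 and Fgf1, and Fgf1 and Fgf21. Fgf10 and Fgf1, the lowest members in control FAPs, were above Fgfr3 in senescent FAPs. Divided by coding length instead, a choice made after the values were seen, Fgf2 had the highest mean in both groups with 240 and 472 CPM per coding kb. In control replicate 1, however, Fgf2 lay below Fgf7 and Fgfr1 by this measure.

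**Figure D3:**
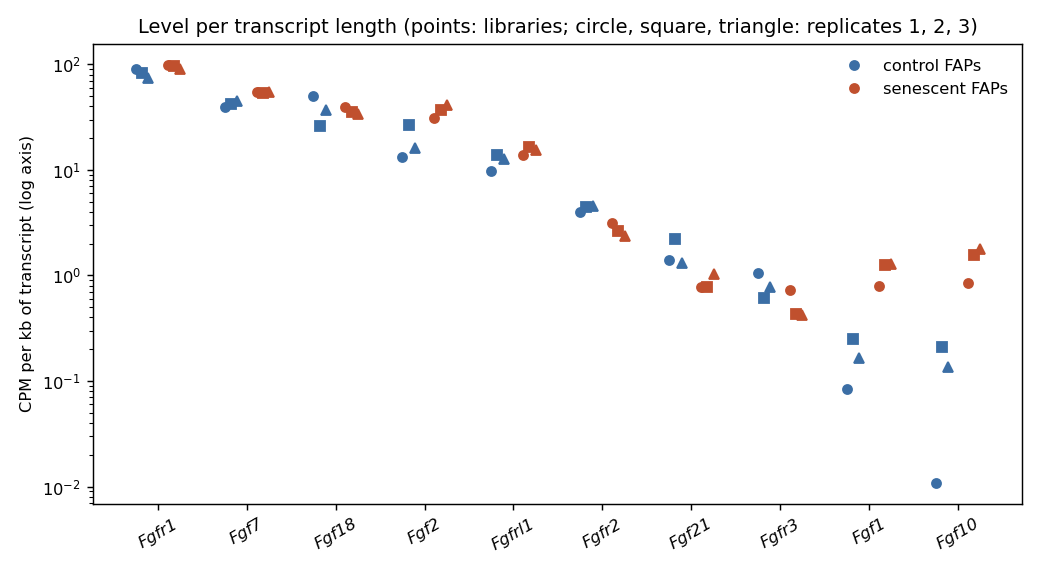
Level of each member in CPM per kb of transcript (log axis), ordered by the control mean, with 1 point for each library (circle, square and triangle for replicates 1, 2 and 3). Levels span from Fgfr1 at 82.1 to Fgf10 at 0.118 CPM per kb in control FAPs, and the senescent points of Fgf1 and Fgf10 lie well above their control points.

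As shares of the summed level per kb of the 6 ligands, Fgf7 took 37.8% to 44.9% in control and 40.5% to 42.7% in senescent libraries. Fgf2 took 12.7% to 27.2% in control and 24.3% to 31.1% in senescent libraries, and Fgf18 took 26.8% to 48.0% and 25.3% to 31.2%. The shares of both Fgf2 and Fgf18 overlapped between the groups. Fgf10 took 0.0104% to 0.214% in control and 0.670% to 1.33% in senescent libraries, so that even after its rise it was a small part of the ligand transcripts. Of the 4 receptors, Fgfr1 took 80.3% to 85.9% in control and 83.2% to 84.9% in senescent libraries, and Fgfr2 took 3.79% to 5.00% and 2.21% to 2.70%. These shares depend on the length used. By coding length Fgf2 took 38.7% to 58.2% of the ligand sum in control and 54.6% to 61.8% in senescent libraries, which also overlapped, and Fgf18 7.76% to 19.8% and 6.82% to 9.48%.

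The genes whose values over the 6 libraries were most like those of a called member were found by the root mean square difference of log2(CPM + 0.5) after the control mean was taken off. For Fgf10 they included Gm15675 (0.181 log2 units) and Ablim1 (0.240). For Fgf1 they were Atp6v0e2 (0.122), Enpp5 (0.155) and Ptpn22 (0.157), and for Fgf2 they were Bdh2 (0.0617), Aspa (0.0745) and Tmem202 (0.0830). Fgf7 was nearest to Zcchc6 (0.0280), Zfp809 (0.0306) and Araf (0.0327), the last of which encodes a kinase of the pathway below FGF receptors. Fgf21 was nearest to Amd1 (0.0603), Rtel1 (0.0619) and Gm13461 (0.0667), and Fgfr2 to Wdr76 (0.0426), Erc1 (0.0539) and C2cd2 (0.0553). These are nearest neighbours among 14776 genes over 6 libraries and are given as a description.

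Of 17 other FGF family genes, Fgf11 was analysed here and the other 16 were not. FGF11 is an intracellular family member that is not thought to act through FGF receptors. Fgf11 had 0.982, 0.456 and 0.521 CPM in control and 2.36, 1.29 and 1.71 CPM in senescent libraries 1 to 3, with the groups apart. Its log2 fold change was 0.99 (SE 0.24, limma BH-adjusted p = 0.0132).

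Of 13 genes for cofactors that help FGFs reach or hold their receptors, 9 were tested, 3 were higher and 2 lower (55.6% called, against 46.1% of all genes), with a median log2 fold change of 0.14. Fgfbp3, which encodes a carrier that binds FGFs, rose from 1.40 ± 0.391 to 3.48 ± 0.504 CPM (SD, n = 3 each), a log2 fold change of 1.08. Lgals3, the gene of galectin-3, rose by 0.98 and Flrt2, a membrane protein gene of the FLRT family, by 0.63. Cdh2, which encodes N-cadherin, a partner of FGFR1 in the membrane, had a log2 fold change of −0.62 (for these 4 genes, limma BH-adjusted p from 0.00218 to 0.00728). Without senescent replicate 2 or 3, 1 of the genes was called lower, where the shares over all genes were 16.4% and 18%.

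Heparan sulfate genes were called in 16 of 26 cases tested of 35 listed (61.5%, against 46.1% of all genes), 9 higher and 7 lower, with a median log2 fold change of 0.03. The list summed to 6051 to 6199 CPM in control and 5396 to 5654 CPM in senescent libraries. Agrn, the gene of the heparan sulfate proteoglycan agrin, rose from 26.3 ± 0.761 to 47.6 ± 5.76 CPM (SD, n = 3 each), a log2 fold change of 0.84 (limma BH-adjusted p = 7.62e-04). Hspg2, a further proteoglycan gene, had −0.85, with 2178 ± 164 CPM in control and 1218 ± 166 CPM in senescent FAPs (SD, n = 3 each). Of the other tested proteoglycan genes, Sdc1 (0.47), Gpc2 (0.93) and Gpc4 (0.49) were called higher and Sdc3 (−0.33) lower. Sdc2, Sdc4, Gpc1, Gpc3 and Gpc6 were not called. Sulf2, which encodes an extracellular enzyme that removes sulfate groups from the chains, rose by 1.16, and Hs3st1, a sulfotransferase gene, rose by 1.47 from 0.639 ± 0.259 to 2.63 ± 0.492 CPM (SD, n = 3 each). Glce, which encodes the epimerase that modifies the sugar backbone, had a log2 fold change of −0.83, with 113 ± 15.7 CPM (SD, n = 3) in control and 62.9 ± 1.37 CPM (SD, n = 3) in senescent FAPs. The genes that rose thus include a sulfotransferase at a low level and a sulfatase. A further sulfatase gene, Sulf1, was also called higher (log2 fold change 0.38). Of the other tested sulfotransferase genes, Hs6st1 (−0.75), Hs3st3b1 (−0.66) and Ndst2 (−0.32) were called lower, and Hs2st1, Hs6st2 and Ndst1 were not called. Without control replicate 1, senescent replicate 2 or senescent replicate 3, 4 of the genes were called lower, and with division by library totals alone 4. Over all genes 19.6%, 16.4%, 18% and 13% were called lower in these fits, in the same order.

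Of the genes of the cascade inside the cell, 10 of 31 tested were called (32.3%, against 46.1% of all genes), 5 higher and 5 lower, with a median log2 fold change of −0.02. Gab1, a docking protein gene, rose by 0.60 and Araf by 0.37. Nras, which encodes a RAS protein, had a log2 fold change of −0.44 (limma BH-adjusted p = 0.00356), with 137 ± 6.54 CPM (SD, n = 3) in control libraries against 101 ± 6.85 CPM (SD, n = 3) in senescent ones. With division by library totals alone 12 were higher and 2 lower, where the shares over all genes were 34.1% and 13%. Leaving out senescent replicate 2 gave 3 higher, and leaving out senescent replicate 3 gave 3 lower. The shares over all genes in these fits were 12% higher and 18% lower.

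Of 28 feedback and early target genes of the ERK pathway tested, 7 were higher and 7 lower, near the shares of all genes (21.8% higher and 24.3% lower), with a median log2 fold change of 0.09. Dusp6 and Dusp9, which encode phosphatases of the ERK kinases, had log2 fold changes of −1.02 and −1.19, and Myc had −1.24, with 61.0 ± 8.35 CPM (SD, n = 3) in control and 25.8 ± 5.11 CPM (SD, n = 3) in senescent FAPs. Il17rd, the gene of the FGF antagonist SEF, rose by 0.69, and Etv1, a transcription factor gene, by 1.41. Ccnd1, which encodes cyclin D1, rose by 2.15 from 118 ± 64.8 to 485 ± 80.7 CPM (SD, n = 3 each). For these 6 genes the limma BH-adjusted p ranged from 2.53e-04 to 0.00866. The count of genes called higher was 11 without control replicate 2. It was 4 without control replicate 3 or any 1 of senescent replicates 1, 2 and 3. Over all genes the share called higher was 23.2% without control replicate 2 and 16.8% without control replicate 3. That share was 17.1%, 12% and 12.8% without senescent replicates 1, 2 and 3. With division by library totals alone 11 of the feedback genes were called higher, where the share over all genes was 34.1%.

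**Figure D4:**
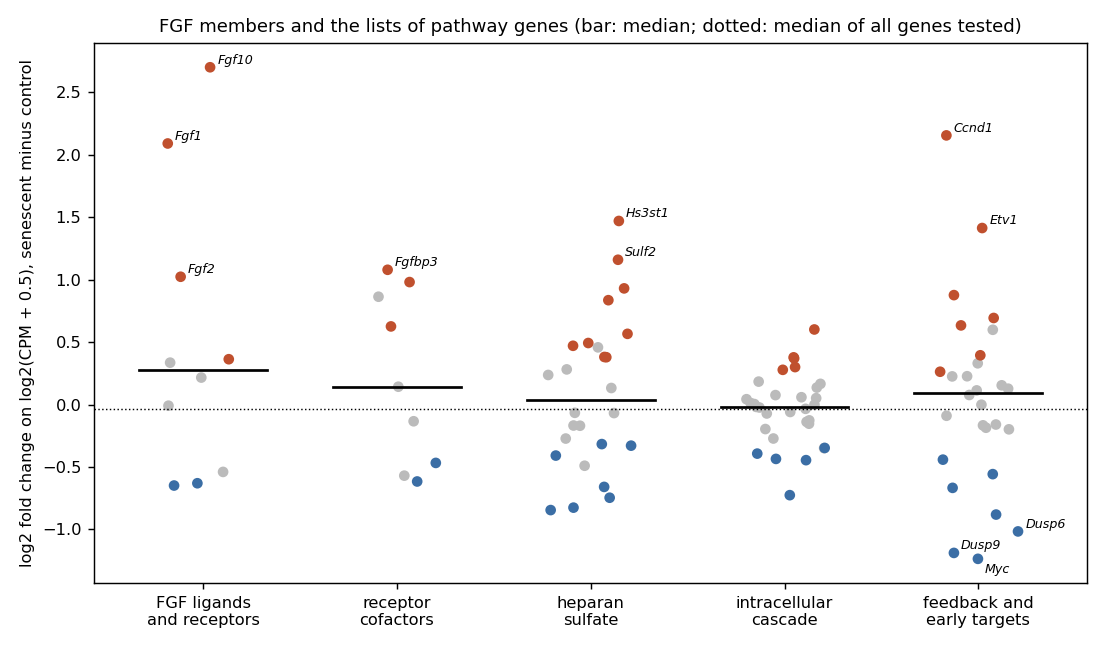
Log2 fold change on log2(CPM + 0.5), senescent minus control FAPs, of the 10 FGF ligands and receptors and of the tested genes of 4 lists of pathway genes, with 1 point for each gene, red for called higher, blue for called lower and gray for not called. The medians (bars) lie from −0.02 in the intracellular cascade to 0.28 in the ligands and receptors, beside −0.03 for all genes tested (dotted line), and genes beyond 1 in either direction are named.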

How the data were processed

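Libraries were prepared by the authors with a stranded mRNA kit, and counts per gene were scaled in edgeR 3.10 (R 3.6.0, genome build mm10, per the labels). The aligner, counting tool, annotation and use of strand are not given in the sources used here. Besides Fgf1, Fgf2 and Fgf10, exons of Fgf7, Fgfr1 and Fgfr3 are overlapped by genes of the opposite strand (Fam227b, Gm16159 and G630022F23Rik). The deposited signal is CPM of the effective library size. Every deposited value was a whole multiple of 1 read within 0.001 reads, so that reads were recovered for 100% of the values. Of 16895 lines, 1 that names no gene was left out (0.00409% to 0.00699% of reads). Every column of values belonged to 1 of the 6 libraries.

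Because normalized values were deposited, limma 3.58.1 (R 4.3.3) with a variance trend was run on log2(CPM + 0.5), two-sided, on the 14776 genes that reached 0.5 CPM in 3 or more libraries, with Benjamini-Hochberg adjustment. The plan assumed plain CPM, and the same test was kept. edgeR 4.0.16 and DESeq2 1.42.0 on recovered reads were alternatives. Intervals are 95% intervals from limma. Named were all members, the 4 called genes with the smallest adjusted p in each pathway list plus called genes beyond a log2 fold change of 1, and the nearest genes by pattern. Fgf2os and Nudt6 were added because they overlap Fgf2. Sulf1 and the other tested sulfotransferase genes were added to set beside Sulf2 and Hs3st1, and Hspg2 and the other tested proteoglycan genes beside Agrn. Some genes that this rule names are not reported here. Members and lists were chosen with earlier results of these data known. Nothing in the labels says that libraries came from separate animals or cultures, so p-values measure the spread between these libraries. The main test has no replicate term. Deviations from the group means correlated between same-numbered libraries over genes (r = 0.54, 0.31 and 0.21). Between libraries of different number r ranged from −0.36 to 0.15. The numbers may thus pair the libraries, but the labels do not say so. The fit with the replicate number as a block was run beside the main test and is given beside the calls it changed. Folds without each library and levels and shares by coding length were added after the data were seen. Positions are from RefSeq on GRCm38.p6 and, for Fgf2os and Nudt6, from GENCODE M21 on GRCm38, the same build as mm10. Figures were drawn with matplotlib.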

Additional observations from a re-analysis of the deposited data

How the results depend on the processing

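The alternatives were other pseudocounts, filters and scalings, each library left out in turn, a replicate block, array weights, no variance trend, edgeR and DESeq2 on recovered reads, and other call rules. Fgf1, Fgf7, Fgf10 and Fgfr2 kept their call in each of the 18 settings tried for single genes, Fgf2 in all but the one without senescent replicate 3. Depth limits Fgf10 in control FAPs most, down to 2 reads in control replicate 1.

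Of the members, 1 was called lower in place of 2 with the filter at 2 CPM, which removed Fgf21. The same count held with library totals alone and at an adjusted p under 0.01. By size (more than 1 log2 unit with an unadjusted p under 0.01) 0 members were called lower. Over all genes the share called lower was 27.4% with the filter at 2 CPM and 13% with library totals alone. It was 14.3% at an adjusted p under 0.01 and 3.9% by size. Library totals alone changed Fgf21 to −0.48 (call lost), Fgfr1 to 0.43 and Fgfrl1 to 0.54 (called), quantile normalization changed Fgfr1 to 0.44 (called), and array weights called Fgfr1 (0.34), Fgfr3 (−0.65) and Fgfrl1 (0.34). With the replicate block, Fgfr3 (−0.54) and Fgfrl1 (0.34) were called, giving 5 members higher and 3 lower, and the block changed no other call among the members. Fgf18 turned to 0.00862 with median-of-ratios factors, 0.20 with library totals alone and 0.0536 with quantile normalization, never past the threshold. Apart from the values in these sentences, the cause of each change was not tested.

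With each library left out in turn, members called higher ranged from 3 to 5 and lower from 1 to 2, and the log2 fold change ranged from 0.81 to 1.31 for Fgf2, −0.25 to 0.22 for Fgf18, −0.74 to −0.45 for Fgf21, −0.75 to −0.36 for Fgfr3 and 0.19 to 0.43 for Fgfrl1. For the lists, receptor cofactors called lower ranged from 1 to 3 and heparan sulfate genes called lower from 4 to 9. Cascade genes called higher ranged from 3 to 5 and lower from 3 to 6, and feedback genes called higher from 4 to 11. Over all genes the share called higher ranged from 12% without senescent replicate 2 to 23.2% without control replicate 2. The share called lower ranged from 16.4% to 26.1%, without the same libraries.

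Receptor cofactors called lower were 1 with library totals alone, quantile normalization or an adjusted p under 0.01. Heparan sulfate genes called lower were 4 with library totals alone or an adjusted p under 0.01 and 11 with array weights. Cascade genes called higher were 12 with library totals alone and 2 at an adjusted p under 0.01, and those called lower were 2 with library totals alone, 3 with quantile normalization or at an adjusted p under 0.01, and 9 with array weights. Feedback genes called higher were 11 with library totals alone, 12 with array weights, and 4 without a variance trend or at an adjusted p under 0.01. By size, the counts were 1 higher and 0 lower for receptor cofactors and 2 and 0 for heparan sulfate genes. They were 0 and 0 for the cascade, and 2 and 3 for feedback genes. Over all genes, 30.6% were called higher and 35.3% lower with array weights, and 34.1% and 13% with library totals alone. The shares were 21.8% and 22.6% with quantile normalization and 21.1% and 23% without a variance trend. They were 12.5% and 14.3% at an adjusted p under 0.01, and 6.93% and 3.9% by size.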
